A study of Nematostella vectensis with 33 samples.

Results

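Whole polyps of the sea anemone Nematostella vectensis were left untreated or given the cyclic dinucleotide c-di-AMP at 500 µM for 24 h, and transcript levels in these groups were compared. The comparison rests on 4 libraries, chosen by their labels alone (2 from c-di-AMP polyps and 2 from untreated polyps), of 33 libraries in the series. The 6 other polyp libraries, 2 each from polyps given c-di-GMP, 3'3'-cGAMP or 2'3'-cGAMP at the same dose and time, lent their spread to the test and served as a comparison, and they also counted in the filter on low values. Animals were kept at room temperature in diluted sea water, and poly(A) RNA was sequenced. The labels give no strain, age or sex and no carrier solution for the untreated polyps, and they do not say how many animals went into a library or whether libraries came from separate cultures, so every p-value reflects the spread among these libraries alone, which may be technical.

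Cyclic dinucleotides are small ring-shaped second messengers made of 2 nucleotides. Bacteria make c-di-AMP, in which both bases are adenine, and c-di-GMP, in which both are guanine. 3'3'-cGAMP carries an adenine and a guanine on the same kind of ring, whereas 2'3'-cGAMP, the product of the animal enzyme cGAS, has the same bases and a different linkage at a single position. In mammals all of them can bind STING, a receptor at the endoplasmic reticulum that switches on antiviral and inflammatory genes through the factors IRF3 and NF-kB, and sea anemones have a STING protein as well.

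Values are normalised counts as deposited, which can be compared between libraries but not between genes, since they are not divided by gene length. In the 4 libraries the deposited totals ran from 9556248 to 10547485, the estimated depth from 10797365 to 12878201 reads, and 4.57 to 4.80% of genes were listed at 0. The 2'3'-cGAMP libraries stood apart from the others, with totals of 22340688 and 22363394, so levels set against them depend on the scaling. Genes carry NCBI Gene identifiers, of which 76.4% have a symbol in the reference used here, always a placeholder that starts with LOC. Neither the genes' products nor the cell types of the polyp could therefore be checked against known markers, and no function is given for any gene. In whole polyps, more cells of a type and more RNA per cell cannot be told apart.

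Most genes called with c-di-AMP were higher, and their number was small. Of 18511 tested genes, limma called 143 higher and 3 lower in c-di-AMP polyps at an adjusted p below 0.05, which is 0.773% and 0.0162% of the tested genes. The number called lower depended on the fit: with the spread taken from the compared groups alone 98 genes were called higher and 83 lower, and with array quality weights 193 and 28. The called genes that rose did so by a median of 1.36 on the log2(value + 1) scale, with quartiles of 0.97 and 1.80. The median over all tested genes was 0.025. Since the 143 genes were called on this same change, that distance is a description. In 104 of them the log2 change was at least 1 and in 17 at least 2. Both c-di-AMP libraries lay above both untreated libraries for all 143 genes, a condition that 23.2% of the tested genes met. Among all tested genes large changes were found in both directions, with a log2 change of at least 1 in 650 and of -1 or lower in 735, but 104 of the former and 3 of the latter were called. At an unadjusted p below 0.05 there were 1890 genes, or 10.2%, and the 95% interval of the median gene reached 0.625 to either side of its log2 change.

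**Figure D1:**
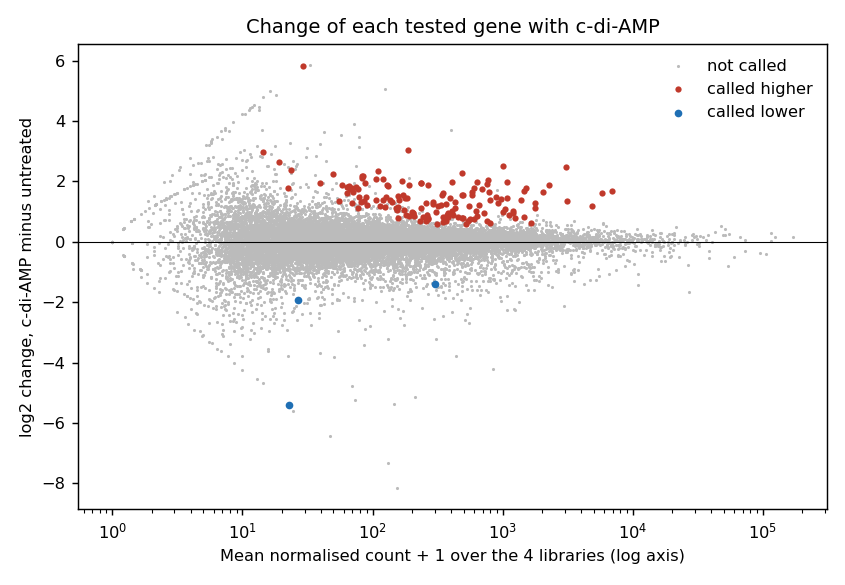
Log2 change with c-di-AMP (vertical axis) against the mean normalised count plus 1 over the 4 compared libraries (horizontal log axis), with 1 point per tested gene. The 143 genes called higher (red) spread over a wide range of mean counts, while 3 genes were called lower (blue).

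Genes called higher were found in each range of normalised counts. Among genes with an untreated mean below 50 normalised counts 31 of 6540 were called higher (0.474%), among those from 50 to 500 it was 87 of 8865 (0.981%), and among those at 500 or more it was 25 of 3106 (0.805%). Their median log2 changes were 1.84, 1.23 and 1.28. The level also sets how small a change the test can call, so these shares do not compare how readily the genes responded.

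LOC5517508 had the largest rise among the genes with a symbol and a mean of at least 50. It stood at 40.8 and 37.2 normalised counts in the untreated libraries and at 371.0 and 292.1 in the c-di-AMP libraries. The groups were far apart, with a log2 change of 3.05 ± 0.21 (SE; 95% interval 2.59 to 3.51, adjusted p = 0.000294 by limma).

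LOC5516250 and LOC5516210, which are neighbours in the reference gene order, followed with almost equal changes. LOC5516250 stood at 876.6 and 974.9 untreated and at 5578 and 4768 with c-di-AMP, and LOC5516210 at 349.0 and 253.1 untreated and at 1683 and 1700 with c-di-AMP. In both genes the distance between the groups was many times that within them. The log2 changes were 2.48 ± 0.12 (SE) for LOC5516250, which had the smallest adjusted p of all genes (2.3e-05 by limma), and 2.50 ± 0.18 for LOC5516210 (adjusted p = 0.000294).

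LOC5513401 and LOC5513363 are another neighbouring pair. LOC5513401 stood at 184.3 and 141.6 normalised counts untreated and at 900.8 and 702.6 with c-di-AMP, and LOC5513363 at 151.2 and 175.2 untreated and at 708.5 and 589.8 with c-di-AMP. In both genes the groups were far apart. Their log2 changes were 2.29 ± 0.19 and 1.98 ± 0.18 (SE), with adjusted p of 0.000371 and 0.000611 by limma.

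LOC5519349 and LOC5500942 rose about as much. LOC5519349 stood at 406.8 and 466.4 normalised counts untreated and at 1730 and 1725 with c-di-AMP, so both treated libraries lay close together. LOC5500942 stood at 287.9 and 230.1 untreated and at 1123 and 907.0 with c-di-AMP. The log2 changes were 1.99 and 1.97, each with an adjusted p of 0.000307 by limma. By contrast LOC116619695, at 293.0 and 300.0 untreated, stood at 1560 in c-di-AMP library 1 and 954.0 in library 2 (log2 change 2.04, adjusted p = 0.00411).

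The other genes among the 15 largest rises had low counts in untreated polyps. LOC116604674 (mean 36.7 untreated), LOC116605567 (30.0), LOC5510756 (29.1), LOC5507867 (29.1), LOC5518949 (39.3), LOC116613925 (44.9) and LOC116620239 (34.7) reached means of 134.7 to 195.2 with c-di-AMP. All 7 rose, by log2 changes from 1.96 for LOC116620239 to 2.35 for LOC116604674. LOC5507867 was the least even of them, at 176.9 and 92.4 in the c-di-AMP libraries (SE 0.35, adjusted p = 0.0206 by limma). Among genes without a symbol, NCBI Gene 5500431 rose from 54.3 and 75.2 to 323.8 and 216.2 normalised counts (log2 change 2.03, adjusted p = 0.0397). That call by limma was lost when any of the 4 libraries was left out (adjusted p from 0.101 to 0.382), with robust moderation (0.0769), without the 2'3'-cGAMP libraries (0.071) and with the replicate block (0.0673). NCBI Gene 116614690 rose from 67.1 and 45.1 to 235.9 and 171.5 (1.85, 0.00843).

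**Figure D2:**
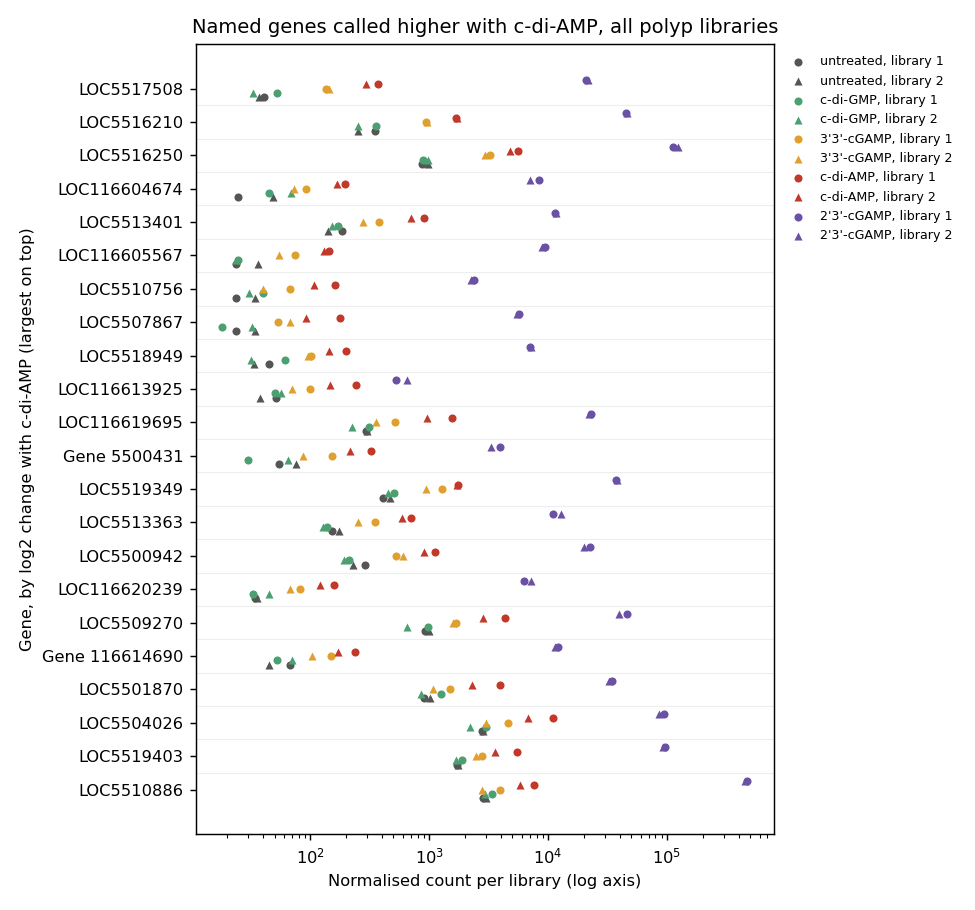
Normalised counts (horizontal log axis) of the named genes called higher with c-di-AMP, for each of the 10 polyp libraries, with colour for the group and circles and triangles for libraries 1 and 2. For LOC5516250 the c-di-AMP libraries at 5578 and 4768 lie above the 3'3'-cGAMP libraries at 3263 and 2918 and far below the 2'3'-cGAMP libraries at 111377 and 123102, and the c-di-GMP libraries lie among the untreated ones.

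The called genes with the highest normalised counts in c-di-AMP polyps, among those with a symbol, are given next, in an order that depends on gene length as well as on transcript number. LOC5504026 stood at 2798 and 2811 normalised counts untreated and at 10985 and 6748 with c-di-AMP, and LOC5510886 at 2809 and 3022 untreated and at 7623 and 5818 with c-di-AMP. Untreated libraries agreed closely for both genes, whereas c-di-AMP library 1 was well above library 2. Their log2 changes were 1.62 ± 0.25 and 1.19 ± 0.17 (SE; adjusted p = 0.015 and 0.0118 by limma). LOC5519403 rose from a mean of 1745 to 4516 (log2 change 1.34), LOC5509270 from 954.6 to 3593 (1.88) and LOC5501870 from 960.1 to 3131 (1.65). Together the 143 genes took 0.446 and 0.494% of the deposited total in the untreated libraries and 1.40 and 1.06% in the c-di-AMP libraries. Since they were chosen for this rise, that share is a description.

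Of the 3 genes called lower, 2 have no symbol. NCBI Gene 5502658 stood at 430.5 and 436.3 normalised counts untreated and at 173.3 and 153.5 with c-di-AMP (log2 change -1.40, adjusted p = 0.0206 by limma), and NCBI Gene 5501765 at 39.1 and 43.4 untreated and at 10.9 and 9.40 with c-di-AMP (-1.92, 0.0449). LOC116618267 stood at 30.6 and 56.7 untreated and had a listed value of 0 in each library with c-di-AMP (adjusted p = 0.015). In each of these genes the groups were apart, but the call was lost when any of the 4 libraries was left out, with adjusted p from 0.0878 to 0.251.

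The c-di-AMP libraries differed in the size of the response. Of the 143 genes 118 were higher in library 1 than in library 2, by a median of 0.24 on the log2 scale, while over all tested genes the median difference between these libraries was 0.00 and over the 143 genes the untreated libraries differed by a median of -0.01. Library 1 thus lay farther from the untreated libraries than library 2 in most of these genes. Both libraries helped to choose the genes, and the genes do not count as repeats of what is a single difference between 2 libraries. Without c-di-AMP library 1 the number of genes called higher fell to 32, without library 2 to 98, without untreated library 1 to 67 and without untreated library 2 to 63. A group then keeps a single library, which is assumed to vary like the other groups. Because the groups did not overlap for any of the 143 genes, leaving out 1 library cannot make a log2 change negative. In each of these 4 fits all 143 genes kept a positive log2 change, and 31 of them were called higher in all 4. The same 31 genes were also called in every other alternative fit tried at an adjusted p below 0.05. Their log2 changes ran from 1.14 to 3.05 with a median of 1.87, and they include 12 of the 22 genes named above as higher, among them LOC5517508, LOC5516250, LOC5516210, LOC5513401, LOC5513363, LOC5519349 and LOC5500942. The other 10 of the 22, which are LOC116604674, LOC5510756, LOC5507867, LOC5518949, LOC116613925, LOC5504026, LOC5510886, LOC5501870 and NCBI Genes 5500431 and 116614690, lost the call in at least 1 of these fits. Without the 2'3'-cGAMP libraries, which bear on the filter and on the spread, 18014 genes were tested and 92 were called higher, 90 of them among the 143.

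**Figure D3:**
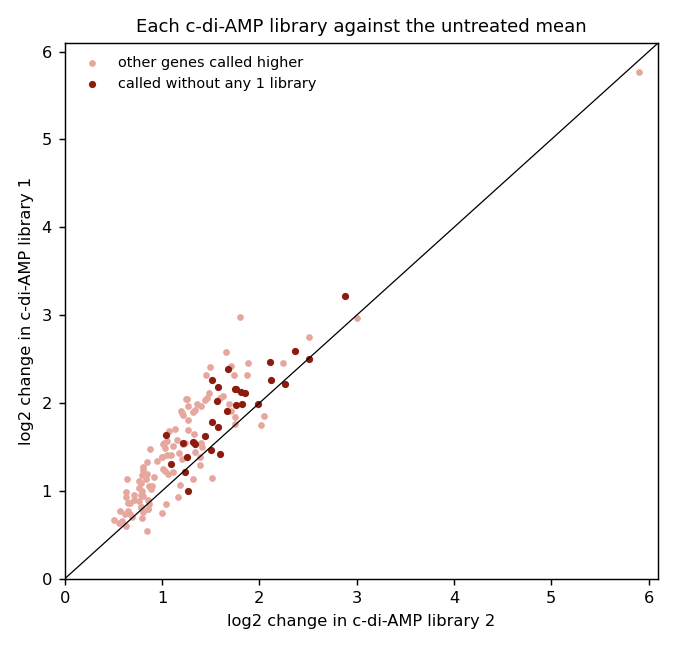
Log2 change of each of the 143 genes called higher in c-di-AMP library 1 (vertical axis) and library 2 (horizontal axis), each against the mean of the untreated libraries, with a line where both are equal. Most points (118) lie above the line, and the 31 genes called without any 1 library (dark) include many of the larger changes.

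Several of the genes called higher were neighbours in the genome. The reference gave a place to 121 of the 143 genes and to 14935 tested genes, of which they are 0.810%. Among the 121 genes 22 (18.2%) were next to another called gene in the order of tested genes, whereas 216 of the 14814 other tested genes (1.46%) were next to a called gene. They formed 8 pairs and 2 runs of 3. In 7 of the 12 adjacent steps no other protein-coding gene of the reference lay between. The 199 genes within 10 places of a run that were not called higher had a median log2 change of 0.012. These counts are a description without a test, and the order comes from the assembly jaNemVect1.1, which may differ from the sequences used by the authors.

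The runs, named after their values were seen, held both strong and moderate responses. LOC5499655, LOC116605567 and LOC5517267 formed a run of 3 with means of 172.9, 30.0 and 577.8 normalised counts untreated and 412.3, 137.5 and 1570 with c-di-AMP, and log2 changes of 1.25, 2.19 and 1.44. LOC5503216, LOC5503224 and LOC5503217 formed the other, with means of 766.2, 291.0 and 52.9 untreated and 2001, 862.1 and 204.4 with c-di-AMP, and log2 changes of 1.38, 1.54 and 1.89. All 6 genes were called higher. LOC116614706 and LOC5507391, with log2 changes of 1.54 and 1.65, were separated from LOC116614705, another called gene with a change of 2.24, by 2 genes with changes of 1.41 (LOC116614704) and 1.28 (LOC5507387) that were not called. In LOC5509269 and LOC5509270 the gene spans overlap, so reads of one may have been counted for the other. In 7 of the 22 genes, LOC5516250, LOC5517267, LOC5503216 and LOC5503217 among them, the value of at least 1 library was not a whole number of reads (tolerance 0.001 of a read), as was so for 41 of the 143 genes. Values were whole in all libraries for 71.3% of the 143 genes and for 81.6% of all tested genes. How reads were divided between similar sequences was not tested.

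**Figure D4:**
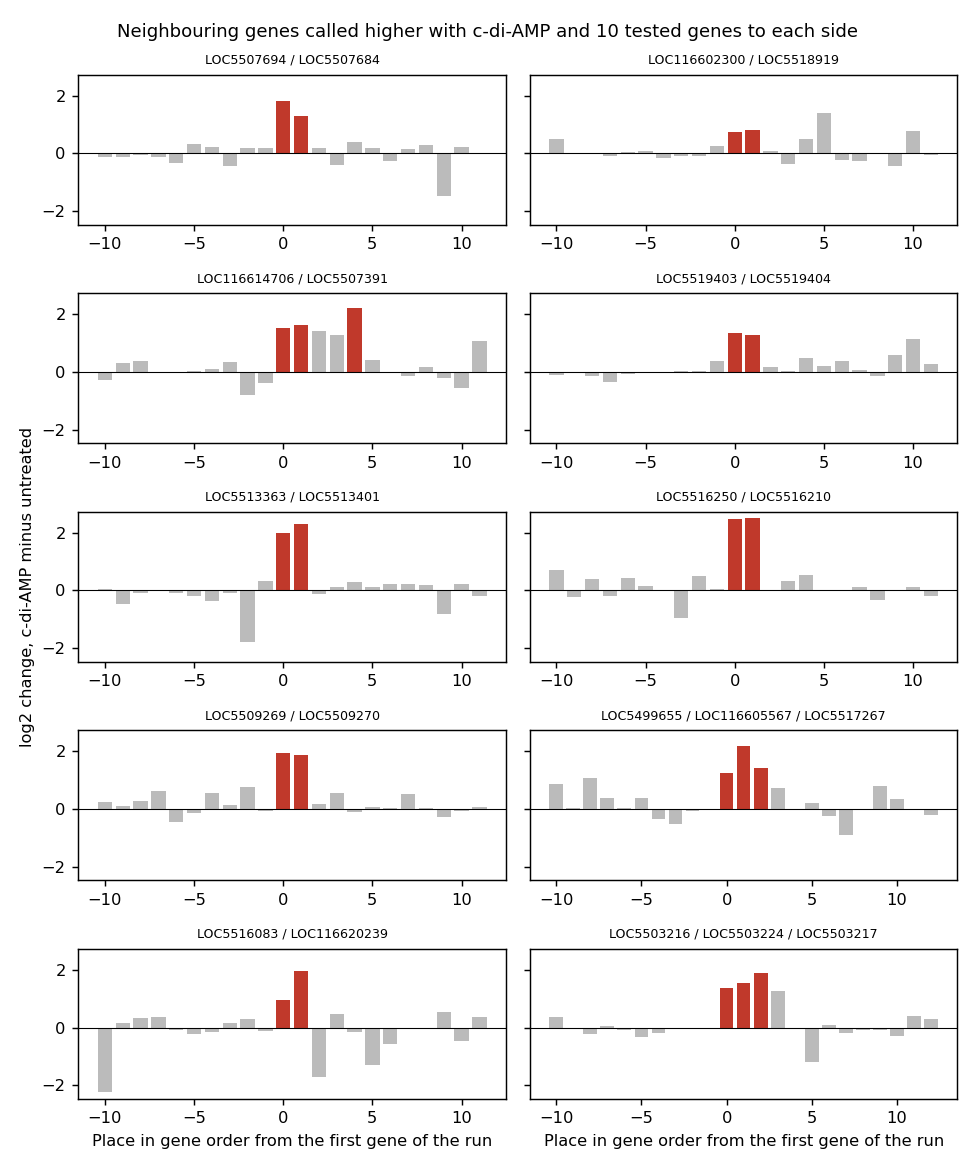
Log2 change with c-di-AMP (vertical axis) of the genes in the 10 runs of neighbouring genes called higher (red) and of the 10 tested genes to each side (grey unless called), by place in the gene order counted from the first gene of the run. In most panels the red bars stand alone, and the panel of LOC116614706 and LOC5507391 shows further high values up to 4 places away.

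The reference also gave the type, span and number of transcripts of these genes. Of the 121 genes in the reference 120 are protein-coding and 1 is a long non-coding RNA, against 99.5% protein-coding among the tested genes. Their median span in the reference was 7761 bases, against 7387 for all tested genes with a place. The median number of RefSeq transcripts was 2 per called gene and 1 per tested gene.

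The other compounds place this response on a scale at the same dose and time. The values of the 3'3'-cGAMP, c-di-GMP and 2'3'-cGAMP libraries did not enter the log2 change by which the 143 genes were called, but they entered the filter and the estimate of spread, so the calls below are not fully independent of that choice. Set against c-di-GMP, 3'3'-cGAMP gave higher values in 136 of the 143 genes (95.1%), against 51.6% of all tested genes, by a median log2 difference of 0.57 with quartiles of 0.32 and 0.85, against 0.011 over all tested genes. Limma called 11 of them higher (7.69%), where 0.0702% of the tested genes were called higher, among them LOC5517508 (log2 difference 1.72, adjusted p = 0.0225), LOC5516250 (1.73, 0.0008), LOC5516210 (1.66, 0.0143), LOC5519349 (1.20, 0.024) and LOC5500942 (1.49, 0.0143). NCBI Gene 116618505 was called lower (log2 difference -5.16, adjusted p = 0.0341), the only such gene of all tested (0.0054%). The number called higher was 3 without the 2'3'-cGAMP libraries, 1 with the compared groups alone, 1 without c-di-GMP library 2, 5 without c-di-GMP library 1 and 4 without 3'3'-cGAMP library 2. Between 2'3'-cGAMP and c-di-GMP, 141 of the 143 genes were called higher with 2'3'-cGAMP, where 27.6% of the tested genes were, and the median log2 difference was 5.73.

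**Figure D5:**
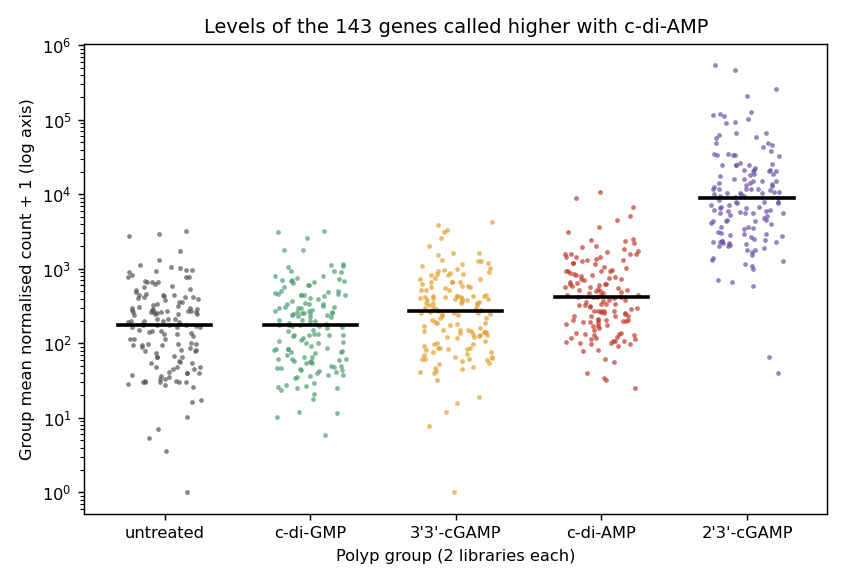
Group means of normalised counts plus 1 (vertical log axis) for the 143 genes called higher with c-di-AMP, with 1 point per gene and a black bar at the median, in the 5 polyp groups of 2 libraries each. The medians before adding 1 are 175.0 untreated, 174.5 for c-di-GMP, 270.0 for 3'3'-cGAMP, 412.3 for c-di-AMP and 8927 for 2'3'-cGAMP, where the untreated and c-di-AMP libraries were those used to choose the genes.

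c-di-AMP and c-di-GMP, which differ in both bases, gave clearly different levels. LOC5517508 stood at 51.9 and 33.2 normalised counts in the c-di-GMP libraries, to either side of the untreated values, and differed from c-di-AMP by 2.96 on the log2 scale (95% interval 2.50 to 3.41, adjusted p = 0.000183 by limma). NCBI Gene 5500431, at 30.1 and 65.5 with c-di-GMP, differed by 2.55 (1.71 to 3.38, adjusted p = 0.0103), a call that was lost without c-di-AMP library 1 (adjusted p = 0.18) and without c-di-GMP library 1 (0.0729). Of all tested genes 0.702% were called higher with c-di-AMP than with c-di-GMP and 0.0054% lower. At an unadjusted p below 0.05 there were 711 genes (3.84%), and the median log2 difference over all tested genes was 0.003. Of the 143 genes 108 were called higher, but their c-di-AMP libraries were those that chose them.

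c-di-AMP and 3'3'-cGAMP were told apart in few genes, and how few depended on the libraries. LOC5517508 stood at 136.0 and 142.3 normalised counts with 3'3'-cGAMP, between the untreated and c-di-AMP values, and its log2 difference of 1.24 from c-di-AMP (95% interval 0.78 to 1.69) did not pass the test (adjusted p = 0.122 by limma). LOC5516210 stood at 933.2 and 966.3 with 3'3'-cGAMP, a difference of 0.83 (0.44 to 1.22, adjusted p = 0.276), and LOC5510886 at 3924 and 2805, a difference of 1.01 (0.62 to 1.39, adjusted p = 0.134). The c-di-AMP libraries of these 3 genes were among those that chose them, so the differences are a description. Limma called 1 gene, 0.0054% of those tested, NCBI Gene 5519757, which stood at 1007 and 850.6 with c-di-AMP, 391.3 and 305.0 with 3'3'-cGAMP and 271.7 and 262.0 untreated (log2 difference 1.42, adjusted p = 0.0354). Its call was lost without c-di-AMP library 1 (adjusted p = 0.187), without 3'3'-cGAMP library 2 (0.244), without the 2'3'-cGAMP libraries (0.0915) and with the compared groups alone (0.787). The count rested on single libraries, with 262 genes called without 3'3'-cGAMP library 1 and 0 without 3'3'-cGAMP library 2. The 3'3'-cGAMP libraries differed in estimated depth, with 17419617 reads in library 1 and 11010232 in library 2. Genes listed at 0 were 3.81% in library 1 and 5.77% in library 2. Whether this bears on the count was not tested. At an unadjusted p below 0.05 there were 1078 genes (5.82%) in the fit of all groups. The 95% interval of the median gene among the 143 reached 0.38 to either side without adjustment over all genes, and the differences of 0.83, 1.01 and 1.24 given above did not pass after adjustment.

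2'3'-cGAMP gave far higher levels of most of the same genes. Whether the bases or the linkage of a compound bear on these differences was not tested. LOC5517508 reached 20724 and 21756 normalised counts with 2'3'-cGAMP, a log2 difference of -6.01 for c-di-AMP minus 2'3'-cGAMP (95% interval -6.46 to -5.55, adjusted p = 6.73e-09 by limma). Of the 143 genes 141 were called lower with c-di-AMP than with 2'3'-cGAMP, as were 27.8% of the tested genes. The level with c-di-AMP was a median of 4.75% of that with 2'3'-cGAMP, with quartiles of 2.41 and 8.88%, and the median would be 10.7% with equal library totals. The ratio varied widely between genes: LOC5510886 reached 6721 ± 1277 (SD, n = 2) against 461703 ± 18415, or 1.46%, and LOC116613925 reached 195.2 ± 67.8 against 587.5 ± 89.1, or 33.2%.

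The 2 of the 143 genes that were not called lower with c-di-AMP than with 2'3'-cGAMP were picked out after their values were seen. NCBI Gene 5498807 stood at 18.3 and 12.2 normalised counts untreated, 56.7 and 65.2 under c-di-AMP, 54.5 and 77.0 under c-di-GMP, 29.6 and 33.7 with 3'3'-cGAMP and 81.7 and 48.3 with 2'3'-cGAMP. NCBI Gene 116618505 was listed at 0 in both untreated and both 3'3'-cGAMP libraries and stood at 53.5 and 58.7 under c-di-AMP, 17.3 and 69.0 under c-di-GMP and 35.8 and 41.7 with 2'3'-cGAMP. In both genes the levels under c-di-AMP and c-di-GMP overlapped.

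The genes with the largest differences between c-di-AMP and 2'3'-cGAMP were not called between c-di-AMP and untreated polyps. LOC5514999 stood at 2.72 and 3.13 normalised counts with c-di-AMP and at 1.70 and 3.54 untreated, against 5915 and 6845 with 2'3'-cGAMP (log2 difference -10.66, adjusted p = 1.63e-07 by limma). NCBI Gene 116615652 stood at 22.7 and 13.3 with c-di-AMP and at 2.55 and 6.20 untreated, a log2 change of 1.87 that did not pass the test (95% interval 0.81 to 2.92, adjusted p = 0.173), against 9031 and 6775 with 2'3'-cGAMP. Among the genes with less transcript under 2'3'-cGAMP, LOC5510380 stood at 936.2 and 845.9 with c-di-AMP and at 874.6 and 690.3 untreated, against 11.9 and 28.4 with 2'3'-cGAMP (log2 difference 5.51, adjusted p = 1.47e-07). LOC116603002 stood at 147.9 and 144.9 with c-di-AMP and at 128.2 and 92.9 untreated, against 0 and 1.90 with 2'3'-cGAMP. The 95% intervals of their change with c-di-AMP were wide, from -0.55 to 1.39 for LOC116603002, from -0.47 to 0.86 for LOC5510380 and from -1.15 to 1.47 for LOC5514999.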

How the data were processed

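The polyp table holds normalised counts per gene for each of 10 libraries, a signal that the authors deposited without whole-number counts. Per the submitters' processing notes, FastQC 0.11.9, kallisto 0.46.1 and DESeq2 were used, with no role stated, and the transcriptome build is not given in the sources used here. In each library 82.1 to 83.0% of positive values were whole multiples of the value of 1 read (tolerance 0.001 of a read), so reads were not recovered for all genes and no count test was run. Estimated depth is the deposited total divided by that value.

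Tested genes had at least 10 normalised counts in at least 2 polyp libraries (18511 of 21260). The deposited signal was converted to log2(value + 1), which understates changes of low genes, and group means were estimated by limma 3.58.1 (R 4.3.3) in a single model of all 5 polyp groups, using trended, moderated variances. Tests were two-sided, with Benjamini-Hochberg adjustment across the tested genes of a comparison.

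Among called genes whose groups did not overlap and whose mean over both groups reached 50, the text names the 15 largest rises and 6 highest levels with a symbol, 2 rises without one, the lower genes at any mean, and up to 2 genes per direction for each compound comparison. Members and lists were chosen with earlier results of these data known. The comparisons of 3'3'-cGAMP and 2'3'-cGAMP against c-di-GMP and the neighbour counts were added after the data were seen. Of 20 lists of pathways and cell types, matched by name, 0 matched a gene. Protein similarity was not analysed here. Alternatives covered pseudocount, filter, scaling, variance moderation, weights, libraries in the fit, replicate block, thresholds and each compared library left out.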

Additional observations from a re-analysis of the deposited data

How the results depend on the processing

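No named gene changed direction under any alternative. The named genes were chosen for groups that did not overlap, so leaving out a library or changing the pseudocount could not reverse them. All had an absolute log2 change above 1, so the threshold of at least 1 could not lose a call. The count of kept calls below includes that threshold. It also includes median-ratio factors, under which the same 143 genes were called higher. The median change of all tested genes stayed between 0.00 and 0.04 on the log2 scale under every scaling. For c-di-AMP against untreated polyps, 221 genes were called with array quality weights (193 higher, 28 lower), 97 without the 2'3'-cGAMP libraries (92 higher, 5 lower) and 56 at an adjusted p below 0.01 (56 higher, 0 lower). The genes called lower numbered 6 with a pseudocount of 5, 6 with a mean of at least 50, 11 with quantile normalization, 9 with equal library totals and 83, beside 98 higher, with the compared groups alone. At an adjusted p below 0.01, 74 genes were called for c-di-AMP against c-di-GMP. For c-di-AMP against 2'3'-cGAMP, 10361 genes were called with the values as deposited, 13361 with equal library totals and 9738 with quantile normalization. Between c-di-AMP and 3'3'-cGAMP limma called 2 genes without a filter, 3 with equal totals, 4 with robust moderation, 11 with the replicate block, and 0 without the 2'3'-cGAMP libraries, with the compared groups alone or at an adjusted p below 0.01; 1078 genes had an unadjusted p below 0.05 in the fit of all groups. Of the 143 genes, the number called higher with 3'3'-cGAMP than with c-di-GMP was 3 without the 2'3'-cGAMP libraries, 1 with the compared groups alone and 1 at an adjusted p below 0.01. The causes were not tested.

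With single libraries left out, the calls for c-di-AMP against untreated ran from 35 (without c-di-AMP library 1) to 101 (32 to 98 higher, 0 to 3 lower), against c-di-GMP from 51 (without c-di-GMP library 2; 53 without c-di-AMP library 1) to 123 and against 3'3'-cGAMP from 0 to 262, the last without 3'3'-cGAMP library 1. Of the 143 genes, those called higher with 3'3'-cGAMP than with c-di-GMP ran from 1 to 14. Of the results for named genes against untreated polyps, 357 of 374 under the other alternatives and 63 of 100 with a library left out kept their call, and the rest lost it with the same direction.

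The labels give the groups the same replicate numbers without saying that a number marks a shared origin. Differences between libraries 1 and 2 correlated across genes at -0.042 between untreated and c-di-AMP polyps and at -0.099 to 0.068 over all pairs of groups. Such a correlation over all genes cannot show whether libraries with the same number share an origin, since a shared origin may act on few genes. With the replicate block 131 genes were called higher with c-di-AMP than in untreated polyps, 125 of them among the 143. NCBI Genes 5500431 (adjusted p = 0.0673) and 5501765 (0.0745) were the named genes not called in that fit.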
